A study of Mus musculus with 11 samples.

Results

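The 10 genes described here handle cholesterol in macrophages or are direct targets of the liver X receptors (LXRs): *Abca1*, *Abcg1*, *Apoe*, *Mylip*, *Npc1*, *Npc2*, *Soat1*, *Nceh1*, *Lpcat3* and *Lipa*. They were chosen by name among the 12932 genes of the expression table, and all 10 passed the filter on low values and were tested. The bulk RNA-seq libraries come from alveolar macrophages (AMs) of 9-wk-old mice, with 40000 sorted cells per library. There were 4 libraries of mature AMs (mAMs, sorted as CD11b-negative and SiglecF-positive) of genotype CD11cCre- Rxrabfl/fl, called control mAMs, and 4 of mAMs of genotype CD11cCre+ Rxrabfl/fl, called RXR-deficient mAMs. The other 3 libraries were of immature AMs (ImmAMs, CD11b-positive and SiglecF-positive) of genotype CD11cCre+ Rxrabfl/fl. All mice carried floxed alleles of *Rxra* and *Rxrb*, on the C57BL/6J background, and the Cre driver is active in cells that express CD11c, so macrophages and dendritic cells other than AMs are also reached. There were no ImmAMs of control genotype, so in the comparison of ImmAMs with control mAMs genotype and maturity cannot be told apart. Replicate 4 of the RXR-deficient mAMs is not among the 3 mice that the study's legends give for this group. It was left out of the fits other than one alternative with all 11 libraries, and its values are given beside the others.

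AMs continually take up surfactant lipid and have to pass its cholesterol on. Cholesteryl esters that reach the lysosome are cleaved by *Lipa*, lysosomal acid lipase, and the free sterol is handed by the luminal protein *Npc2* to the membrane protein *Npc1* for export. Sterol that is not needed is esterified for droplets by *Soat1* and released again by *Nceh1*, a neutral ester hydrolase. It leaves the cell through the transporters *Abca1*, which loads lipid-poor apolipoproteins, and *Abcg1*, which loads HDL, with *Apoe* as a secreted acceptor. LXRs bind DNA as heterodimers with RXRs, are activated by oxysterols and switch on *Abca1*, *Abcg1* and *Apoe*, together with *Mylip* (IDOL, which marks the LDL receptor for degradation) and *Lpcat3* (a phospholipid-remodelling acyltransferase).

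The promoters of the LXR target genes of this set are shown because these genes moved in different directions in ImmAMs. Each line gives the 250 bases before the RefSeq transcription start in GRCm38.p6, 5′ to 3′ on the strand of the gene. *Abca1* is at chr4:53159896-53160145 (minus strand), *Apoe* at chr7:19699189-19699438 (minus strand, the outermost of its starts), *Mylip* at chr13:45389492-45389741 (plus strand) and *Lpcat3* at chr6:124662854-124663103 (plus strand). Capitals mark matches to 4 motifs searched on both strands.
Abca1: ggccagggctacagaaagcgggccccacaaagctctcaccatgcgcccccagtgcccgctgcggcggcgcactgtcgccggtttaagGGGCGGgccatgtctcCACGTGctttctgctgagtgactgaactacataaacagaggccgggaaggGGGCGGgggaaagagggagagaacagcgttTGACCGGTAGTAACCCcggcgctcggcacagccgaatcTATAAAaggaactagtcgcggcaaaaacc
Apoe: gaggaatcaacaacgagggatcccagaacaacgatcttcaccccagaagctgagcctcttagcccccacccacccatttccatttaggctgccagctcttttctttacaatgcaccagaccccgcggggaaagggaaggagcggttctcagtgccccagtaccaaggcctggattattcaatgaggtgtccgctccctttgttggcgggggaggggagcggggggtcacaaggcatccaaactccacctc
Mylip: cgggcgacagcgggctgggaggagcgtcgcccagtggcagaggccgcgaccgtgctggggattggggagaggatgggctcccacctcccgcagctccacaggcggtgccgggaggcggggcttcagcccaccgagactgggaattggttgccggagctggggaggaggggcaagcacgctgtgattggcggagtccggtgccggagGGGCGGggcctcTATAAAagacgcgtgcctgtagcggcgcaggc
Lpcat3: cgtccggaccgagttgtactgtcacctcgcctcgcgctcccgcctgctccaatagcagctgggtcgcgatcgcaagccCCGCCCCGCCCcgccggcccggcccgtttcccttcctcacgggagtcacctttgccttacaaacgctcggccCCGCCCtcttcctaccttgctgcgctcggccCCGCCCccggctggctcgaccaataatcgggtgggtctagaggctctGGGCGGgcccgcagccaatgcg

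The motifs were AGGTCA followed after any 4 bases by a second AGGTCA, with up to 3 mismatches in the 12 fixed bases (DR4, the repeat that LXR-RXR heterodimers bind), CACGTG (the E-box), TATAAA and GGGCGG (the GC box). *Abca1* was the only member among the 8 with an entry to hold a DR4 match, on the antisense strand at positions -67 to -52 from the start (chr4:53159947-53159962), where it reads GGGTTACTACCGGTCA with 3 mismatches. Of all 32851 promoters, 18.5% held a match this loose. The *ABCA1* promoter is the textbook case of an LXR element of the DR4 kind. *Abca1* also held an E-box at -147 to -142, a TATAAA at -29 to -24 and GC boxes at -163 to -158 and -97 to -92.

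*Mylip* held a TATAAA at -32 to -27 and a GC box at -44 to -39, and *Lpcat3* held 5 GC boxes and no TATAAA. The *Apoe* window printed held none of the 4 motifs, while the window of another of its 3 starts in the table held overlapping TATAAA matches on opposite strands, at -96 to -91 and -100 to -95. Over all promoters the shares were 6.02% for the E-box, 12.4% for TATAAA and 32.7% for the GC box. GC content was 61.6% in *Abca1*, 57.2% in *Apoe*, 71.2% in *Mylip* and 70.0% in *Lpcat3*, against a median of 52.4% over all promoters. A missing match means only that these letters are not in this window. *Abcg1* and *Npc1* had no entry in the table.

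Depth ranged from 16659960 to 37873532 reads counted per library, and the members were covered by 199 to 90731 reads each in every library. The first principal component, taken over the most variable genes only, held 51.6% of their variance and set the ImmAMs apart. On the second component RXR-deficient mAM replicate 4 stood at -24.65, beside control replicates 2 and 4 at -28.28 and -35.61. The other RXR-deficient mAMs stood away from it, at 14.44 to 31.86. Every library held RNA of both sexes, with *Xist* at 55.5 CPM or more and the Y-linked *Ddx3y* at 39.7 CPM or more. A library thus appears to hold cells of several mice, male and female. The study's legends count n as mice, and its methods do not describe pooling for these libraries. Here n, SD and p-values therefore refer to libraries, and the spread between single animals cannot be read from them. *Rxra* was not lower in RXR-deficient mAMs, at 344 ± 9.12 CPM (SD, n = 3) against 344 ± 29.0 CPM (SD, n = 4) in control mAMs, and stood at 291 ± 12.2 CPM (SD, n = 3) in ImmAMs. *Rxrb* stood at 46.1 ± 6.79, 59.8 ± 9.29 and 33.5 ± 1.64 CPM in the same order. The exons removed by Cre are not named in the sources used here, so these gene-level values check the deletion only in part. The study itself reports efficient deletion of both genes in mAMs and ImmAMs of this model, from relative mRNA expression. It also reports RXRα-bound regions found only in control mAMs.

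As a check on the sorted cells, marker lists were summed per library. The alveolar macrophage list (13 of 13 genes read) summed to 22118 to 28504 CPM in control mAMs, 25906 to 32255 in RXR-deficient mAMs and 23916 to 25687 in ImmAMs, but most of this was *Chil3*. *Siglecf* stood at 244 to 264, 198 to 241 and 19.3 to 19.7 CPM in the 3 groups, and *Marco* at 310 to 377, 281 to 286 and 10.9 to 13.8 CPM, so both were low in ImmAMs, although SiglecF was part of their gate. *Pparg*, the master factor of AMs, was at 174 to 233 CPM in the mAMs and 215 to 219 CPM in ImmAMs. The interstitial macrophage list (7 of 10 genes read) summed to 1.36 to 2.43 CPM in control mAMs, 2.78 to 6.30 CPM in RXR-deficient mAMs and 193 to 217 CPM in ImmAMs, with *C1qa* at or near 0 in control mAMs (0.0132 to 0.0737 CPM) and at 24.5 to 29.8 CPM in ImmAMs. The monocyte list (6 of 8) summed to 1416 to 2164 CPM in mAMs and 6883 to 7550 CPM in ImmAMs, mainly from *Fn1*. Sums in mAMs and ImmAMs were 24.6 to 40.6 and 51.7 to 61.9 CPM for neutrophils (5 of 8), 5.72 to 9.95 and 22.2 to 25.2 CPM for dendritic cells (3 of 8), and 7.81 to 14.98 and 1.42 to 2.80 CPM for alveolar type 2 and club cells (2 of 8). Those for eosinophils (2 of 6) and B cells (1 of 5) stayed at or below 7.82 and 1.60 CPM, the dissociation stress list (10 of 10) ranged from 445 to 694 CPM in mAMs and 545 to 599 CPM in ImmAMs, and no marker of T and NK cells (0 of 8) or of endothelial cells and fibroblasts (0 of 6) was read. The part of these markers in the differences of the ImmAMs below was not tested.

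Levels of different genes are compared per kb of their longest principal transcript in GENCODE vM21. In control mAMs, *Abcg1* led with 456 ± 31.0 CPM per kb (SD, n = 4), and *Lipa* followed with 379 ± 43.9, the libraries of both overlapping. *Nceh1* came next at 193 ± 20.5, then *Npc2* at 145 ± 7.47, *Npc1* at 86.7 ± 3.77, *Lpcat3* at 67.0 ± 2.37 and *Soat1* at 38.9 ± 2.32 CPM per kb, each apart from its neighbours. At the bottom, *Mylip* at 23.2 ± 2.26 overlapped *Abca1* at 18.9 ± 4.57, which overlapped *Apoe* at 12.7 ± 2.75 CPM per kb. Control mAMs thus held far more RNA per kb for the HDL-directed transporter than for the transporter for lipid-poor apolipoproteins or for the acceptor. Protein was not measured.

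The order in RXR-deficient mAMs was the same apart from *Abca1* (28.1 ± 3.14 CPM per kb, SD, n = 3) standing above *Mylip* (19.7 ± 1.69). In ImmAMs the order changed, while *Lipa*, *Npc1*, *Soat1* and *Abca1* kept the places they had in control mAMs. *Apoe* moved from the last place to the first, at 764 ± 68.4 CPM per kb (SD, n = 3), followed by *Lipa* at 269 ± 8.01 and *Npc2* at 222 ± 9.44. *Abcg1* fell to the fourth place at 141 ± 3.85 CPM per kb, and *Mylip* was last at 8.54 ± 1.12 CPM per kb. No neighbours in the ImmAM order overlapped.

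**Figure D1:**
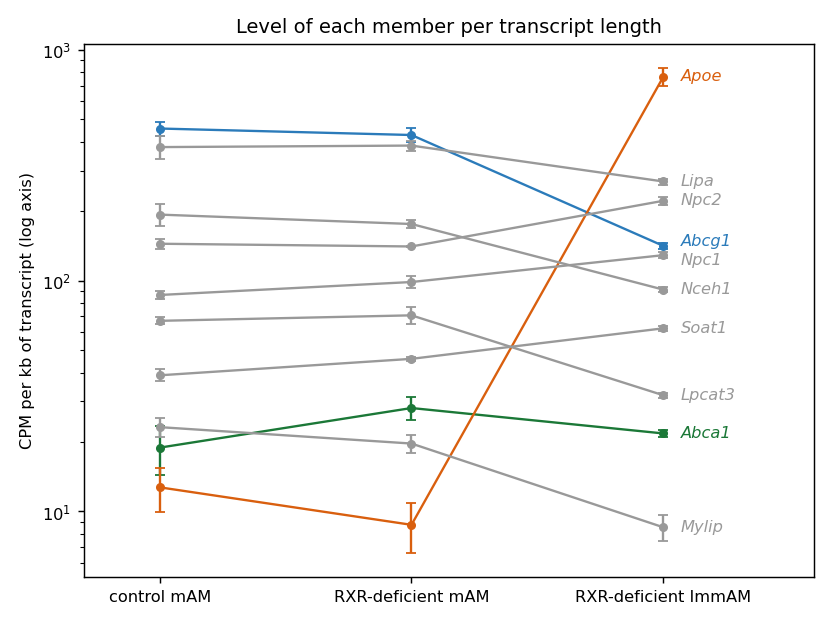
Level of each member in CPM per kb of transcript (log axis) in control mAMs (n = 4), RXR-deficient mAMs (n = 3) and RXR-deficient ImmAMs (n = 3), with dots for means and bars for the SD. *Apoe* goes from the lowest mean in both kinds of mAM (12.7 and 8.75) to the highest in ImmAMs (764), while *Abcg1* goes from 456 to 141.

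The question of the first comparison is what RXR deletion did to mAMs. In RXR-deficient mAMs *Abca1* rose by 0.59 on the log2 scale and *Soat1* by 0.24, and the other 8 members did not pass the test. These 2 called members of 10, both higher, stand beside 4.84% of the 12889 genes tested that were called in either direction with 2.25% called higher and 2.59% called lower (limma, Benjamini-Hochberg adjusted p, p-adj, under 0.05). The members' median log2 fold change was -0.00478, and that of all genes tested was -0.00188. In 3 of 10 members the libraries of the groups did not overlap, beside 20.1% of all genes tested.

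*Abca1* (chr4:53030787-53159895, minus strand, GRCm38) stood at 308, 251 and 305 CPM in RXR-deficient mAM replicates 1 to 3, and at 279 CPM in replicate 4. In control mAMs it was at 149, 196, 258 and 173 CPM. All 4 RXR-deficient libraries were thus above 3 of the 4 controls, with control replicate 3 reaching into their range. The difference of 0.59 ± 0.14 (log2, SE) corresponds to 1.51-fold, with p-adj = 0.0388 and a 95% interval of 0.28 to 0.91. With replicate 4 included, *Abca1* remained called.

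*Soat1* (chr1:156424525-156474331, minus strand), the ester-forming enzyme, stood at 374, 389 and 389 CPM in RXR-deficient mAMs and at 341, 319, 342 and 301 CPM in control mAMs. These 3 libraries were above every control, but replicate 4, at 337 CPM, was within the control range. The difference was 0.24 ± 0.06 (log2, SE; 1.18-fold, p-adj = 0.0461), and with replicate 4 in the fit it was 0.19 with p-adj = 0.173.

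Both calls were close to the threshold. Neither member was called by edgeR's quasi-likelihood test on the recovered reads (p-adj = 0.0512 for *Abca1* and 0.0548 for *Soat1*), nor when control replicate 2 or 4, RXR-deficient mAM replicate 1 or 3, or any of the 3 ImmAM libraries, which only share the estimate of spread, was left out, and 1 was called without control replicate 3. DESeq2 called 3 members, beside 11.3% of all genes with an adjusted p in that test. At an unadjusted p under 0.05 limma, edgeR and DESeq2 each had 5 members, beside 23.6%, 23.1% and 23.7% of all genes.

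Markers moved in this comparison too. Of the 13 AM markers *Krt79*, *Cidec* and *Fabp4* were called lower, and of the other lists *Itgam* and *Cx3cr1* (2 of 6 monocyte markers) and *Itgae* (1 of 3 dendritic cell markers) were called higher, all named because they were called. The sums of the interstitial macrophage list in control and RXR-deficient mAMs, given above, did not overlap. The part of these markers in the differences of the members was not tested.

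Among the other LXR targets of this set, *Apoe* (chr7:19696109-19699188, minus strand) was at 10.2, 15.7, 11.1 and 11.5 CPM in RXR-deficient mAM replicates 1 to 4 and at 12.5, 18.1, 21.6 and 19.5 CPM in control mAMs. Its level was low in both, with 3 of 4 RXR-deficient libraries below every control. The difference of -0.54 ± 0.18 (log2, SE) had p-adj = 0.0953. It was -0.73 with p-adj = 0.0279 without RXR-deficient mAM replicate 2, and -0.70 with p-adj = 0.0205 without control replicate 1. *Mylip* (chr13:45389742-45412022, plus strand) was at 61.6, 64.8, 54.7 and 64.4 CPM against 67.0, 72.0, 80.5 and 64.9 CPM in control mAMs, the lowest control lying just above the highest RXR-deficient library. Its difference was -0.23 ± 0.11 (p-adj = 0.208). *Abcg1* (chr17:31057675-31117988, plus strand) differed by -0.09 (95% interval -0.26 to 0.07) and *Lpcat3* (chr6:124663027-124704418, plus strand) by 0.08 (95% interval -0.07 to 0.23), both with overlapping libraries.

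Of the lysosomal genes, *Npc1* (chr18:12189692-12236400, minus strand) was at 524, 483, 539 and 505 CPM in RXR-deficient mAMs, above the 431, 472, 467 and 441 CPM of every control library. The difference of 0.19 ± 0.06 (log2, SE) had p-adj = 0.0970, and it was called by DESeq2 with p-adj = 0.0398. *Npc2* (chr12:84754562-84773152, minus strand) differed by -0.04 (95% interval -0.17 to 0.09) and *Lipa* (chr19:34492318-34527474, minus strand) by 0.03 (95% interval -0.16 to 0.22). *Nceh1* (chr3:27182965-27284608, plus strand), at 813, 753, 800 and 715 CPM against 877, 869, 971 and 747 CPM, differed by -0.13 (95% interval -0.30 to 0.04). For these 3 genes the libraries of both groups overlapped.

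**Figure D2:**
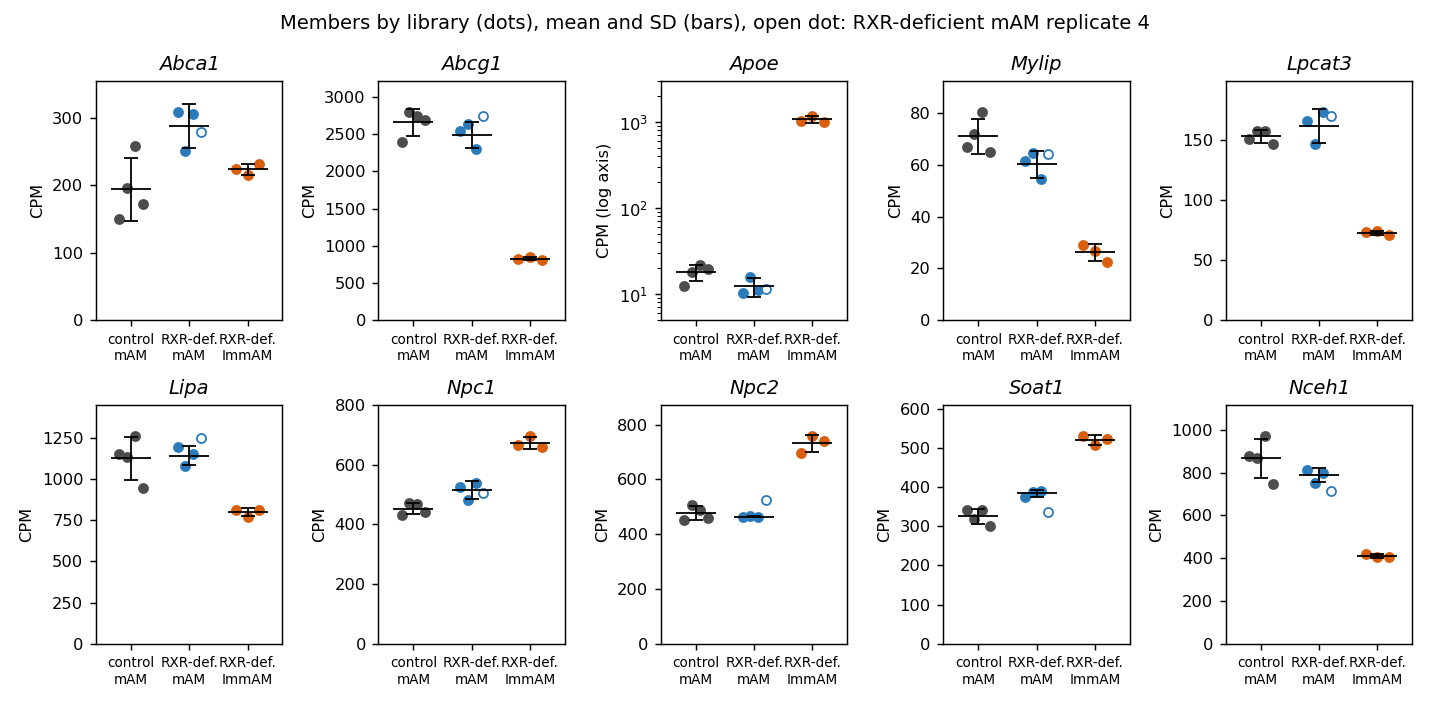
CPM of each member in every library (linear axes from 0, log axis for *Apoe*), with bars for the mean and SD over the libraries of the study and an open dot for RXR-deficient mAM replicate 4. The 3 ImmAM libraries are apart from all mAM libraries for every member other than *Abca1*, whose 215 to 231 CPM lie within the control range of 149 to 258.

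The second comparison, of ImmAMs with control mAMs, changes maturity and genotype together. In ImmAMs *Apoe* rose 61.1-fold and the lysosomal export genes *Npc1* and *Npc2* and the esterifying *Soat1* rose 1.49- to 1.60-fold. *Abcg1*, *Mylip*, *Nceh1*, *Lpcat3* and *Lipa* fell to between 0.31 and 0.71 of the control level. The LXR target genes of this set therefore moved in both directions, with *Apoe* up, *Abcg1*, *Mylip* and *Lpcat3* down, and *Abca1* not passing the test. Of the 4 promoters printed above, that of *Abca1* alone held a DR4 match, a loose one of a kind found in 18.5% of all promoters. A link between this match and the directions was not tested. In all, 4 members were higher and 5 lower of 10, beside 48.1% of all genes tested that were called (22.8% higher and 25.3% lower). For 9 of 10 members the libraries of the groups did not overlap, beside 51.3% of all genes tested. The median size of the log2 fold change was 0.87 over the members and 0.36 over all genes tested. In these bulk libraries fewer cells with an RNA and less of it per cell cannot be told apart.

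*Apoe* was at 1038, 1186 and 1005 CPM in the ImmAM libraries, and the highest of the 8 mAM libraries was at 21.6 CPM. No other member came near a gap of this size between groups. The difference was 5.93 ± 0.18 (log2, SE; p-adj = 8.0e-11), and over all alternatives it lay between 5.77 and 6.03. The interstitial macrophage markers given above, which were at or near 0 in mAMs, were also higher in all 3 ImmAM libraries, and their part in the *Apoe* level was not tested.

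*Abcg1* was at 816, 851 and 808 CPM in ImmAMs against 2397, 2798, 2753 and 2696 CPM in control mAMs. It fell by 1.69 ± 0.08 on the log2 scale (p-adj = 2.1e-09), to 0.31 of the control level, and the groups were far apart. *Abca1*, the other efflux transporter, was at 224, 215 and 231 CPM, inside the control range. Its difference of 0.23 had p-adj = 0.204 and a 95% interval of -0.08 to 0.55, and without control replicate 3 it was 0.38 with p-adj = 0.0108.

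*Mylip* was at 29.2, 26.8 and 22.5 CPM in ImmAMs and fell by 1.45 ± 0.11 (log2, SE; p-adj = 2.0e-07), to 0.37 of the control level. *Lpcat3* was at 73.4, 74.1 and 70.8 CPM against 150, 157, 157 and 146 CPM and fell by 1.07 ± 0.07 (p-adj = 5.4e-08). Every ImmAM library was below every control for both. A share of 8.03% of the 60-base windows of the *Lpcat3* transcripts is also found in other genes, and its exons overlap *Emg1* on the opposite strand. The library kit was strand-specific, but the strand setting of the counting is not given in the sources used here.

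Among the lysosomal genes, the RNA of the hydrolase and that of the export proteins went opposite ways. *Lipa*, at 811, 771 and 814 CPM against 1155, 1136, 1263 and 949 CPM, fell by 0.49 ± 0.09 (log2, SE; p-adj = 0.00049). *Npc1* rose by 0.57 ± 0.06 (p-adj = 6.8e-06), with 667, 696 and 658 CPM in ImmAMs, and *Npc2* rose by 0.62 ± 0.06 (p-adj = 2.6e-06), with 698, 759 and 739 CPM against 453, 507, 487 and 460 CPM. For all 3 genes no ImmAM library reached the range of the controls. Exons of *Npc1* overlap *Rmc1* and *Gm15956* on the opposite strand, and 3.88% of its windows are found in other genes.

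The genes of the storage cycle were also split. *Soat1*, which forms the esters, was at 531, 507 and 524 CPM and rose by 0.68 ± 0.06 (log2, SE; p-adj = 1.2e-06), while *Nceh1*, which cleaves them, was at 420, 404 and 405 CPM and fell by 1.07 ± 0.08 (p-adj = 2.0e-07). Both were apart from the controls in all 3 libraries. These shifts add up in the ratio of *Soat1* to *Nceh1* within each library, taken per kb, which was 0.188 to 0.216 in the 4 control mAM libraries, 0.246 to 0.276 in the 4 RXR-deficient mAM libraries and 0.671 to 0.693 in the 3 ImmAM libraries. The ratio of *Abca1* to *Abcg1* was likewise 0.0354 to 0.0533, 0.0541 to 0.0754 and 0.144 to 0.163 in the 3 groups. That of *Npc1* to *Lipa* was 0.210 to 0.264 and 0.230 to 0.265 in the 2 kinds of mAM, which overlapped, and 0.460 to 0.513 in ImmAMs. These pairs were chosen with the members' values known, so their ranges are a description and were not tested.

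**Figure D3:**
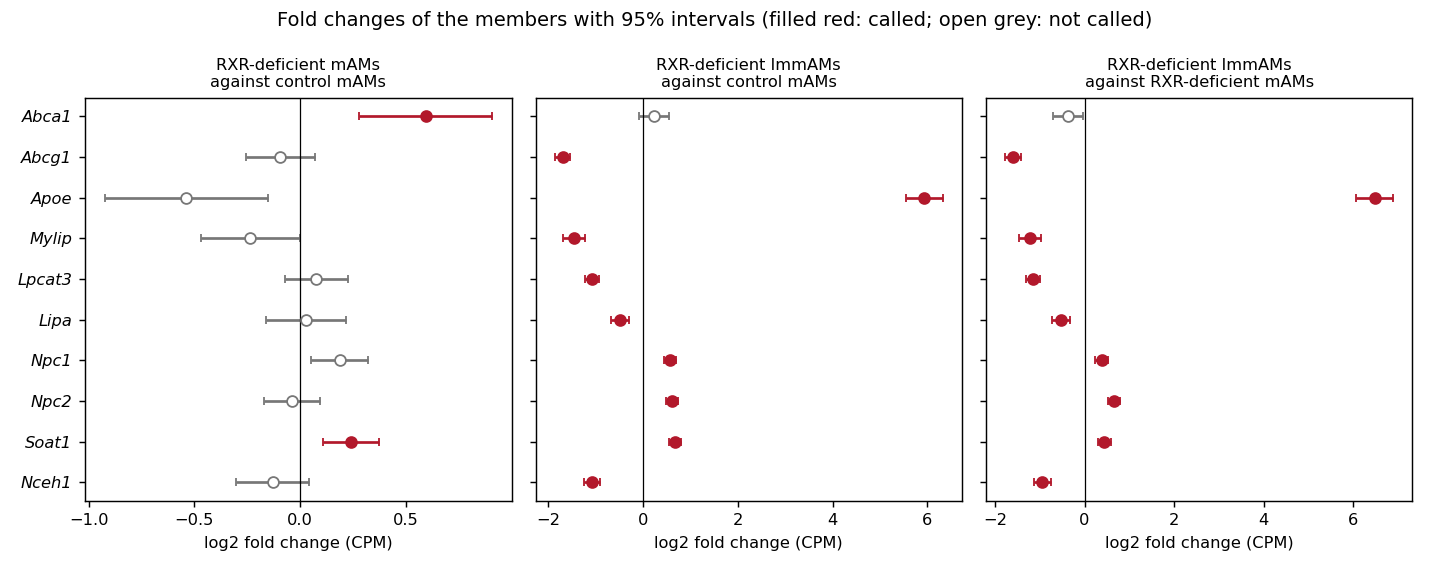
Log2 fold changes of CPM for the members in the 3 comparisons, with dots for the limma estimate and bars for its 95% interval, filled red where p-adj was under 0.05. Only *Abca1* (0.59) and *Soat1* (0.24) are filled in RXR-deficient mAMs against control mAMs, and all members other than *Abca1* are filled in both comparisons of ImmAMs. The x axis of the first panel covers a smaller range than the other 2.

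The third comparison keeps the genotype and sets ImmAMs against RXR-deficient mAMs. It shares its ImmAM libraries with the second comparison and its mAM libraries with the first, so the values are given side by side and not as independent results. *Apoe*, *Npc2*, *Soat1* and *Npc1* rose and *Abcg1*, *Mylip*, *Lpcat3*, *Nceh1* and *Lipa* fell, which is 9 called members of 10 beside 37.9% of all genes tested (17.7% higher and 20.2% lower). *Apoe* rose by 6.47 ± 0.19 (log2, SE; 88.7-fold), against 5.93 in the comparison with control mAMs. *Soat1* and *Npc1* rose by 0.44 ± 0.07 and 0.39 ± 0.07, against 0.68 and 0.57, and *Npc2* rose by 0.66 ± 0.06, against 0.62.

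Among the members that fell, *Abcg1* differed by -1.59 ± 0.08 (log2, SE), *Mylip* by -1.21 ± 0.11, *Lpcat3* by -1.15 ± 0.07, *Nceh1* by -0.94 ± 0.09 and *Lipa* by -0.52 ± 0.09, all with p-adj of 0.00073 or lower. The ImmAM libraries were apart from the RXR-deficient mAM libraries in all 10 members, beside 51.2% of all genes tested, and the same held with replicate 4 included. *Abca1* was lower in every ImmAM library than in every RXR-deficient mAM library, by -0.36 ± 0.15, but with p-adj = 0.0854. This value was called when the 2 groups were fitted alone (p-adj = 0.00673) and without control replicate 1 (p-adj = 0.0457) or 3 (p-adj = 0.0172), whose *Abca1* levels are the lowest and the highest of the controls. Of the 3 group means of *Abca1*, that of the RXR-deficient mAMs was the highest.

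In ImmAMs the genes of the 2 LXRs differed from each other. *Nr1h3*, which encodes LXRα, was at 39.1 ± 4.09 CPM (SD, n = 4) in control mAMs, 28.7 ± 6.14 (SD, n = 3) in RXR-deficient mAMs and 5.89 ± 0.94 (SD, n = 3) in ImmAMs. It fell by 2.74 ± 0.16 on the log2 scale in ImmAMs against control mAMs (p-adj = 2.0e-08), and its -0.46 in RXR-deficient mAMs had p-adj = 0.102. *Nr1h2*, which encodes LXRβ, was at 92.0 ± 11.5, 71.8 ± 6.97 and 81.7 ± 6.21 CPM. In the main fit it was not called in any of the 3 comparisons, and its -0.36 in RXR-deficient mAMs had p-adj = 0.0641. There DESeq2 called both genes lower (p-adj = 0.0442 for *Nr1h3* and 0.0172 for *Nr1h2*). Limma called *Nr1h3* lower without RXR-deficient mAM replicate 2 (p-adj = 0.0447) and *Nr1h2* without control replicate 1 (p-adj = 0.0462). *Rxra* and *Rxrb* were both called lower in ImmAMs against control mAMs (-0.24 ± 0.07, p-adj = 0.0141, and -0.82 ± 0.12, p-adj = 0.00013). The call of *Rxra* was lost with quantile normalization (p-adj = 0.0963) and without ImmAM replicate 2 (0.0551) or 4 (0.0599).

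Other genes of the pathway were read from 3 lists, of 60 genes tested in all. In RXR-deficient mAMs 4 of the 60 rose and 6 fell, beside the 4.84% of all genes called. Among 17 other LXR targets 2 rose and 3 fell, among 29 other cholesterol handling genes 2 rose and 2 fell, and among 15 LXR receptors and co-factors 1 fell. *Msr1*, a scavenger receptor for modified lipoproteins, rose by 1.66 ± 0.25 (log2, SE; p-adj = 0.0045), from 33.0 to 105 CPM. *Scd1*, a fatty acid desaturase, rose by 1.48 ± 0.26 (p-adj = 0.0108), and *Arl4c*, a small GTPase, by 0.69 ± 0.18 (p-adj = 0.0444). *Abca9* also rose, by 1.28 ± 0.29 (p-adj = 0.0289), but at a low level, from 1.35 to 3.33 CPM. The call of *Arl4c* was kept in 1 of 10 fits with a single library left out (p-adj of 0.0164 to 0.152), and it was lost in the fit without a variance trend (0.102), with the replicate block (0.123) and when these 2 groups were fitted alone (0.0976). That of *Scd1* was lost without the trend (0.0605) and without RXR-deficient mAM replicate 1 (0.0519) or 3 (0.0576).

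The falls were in *Pltp*, the phospholipid transfer protein (-0.69 ± 0.14, p-adj = 0.0172), *Fasn*, fatty acid synthase (-0.53 ± 0.07, p-adj = 0.0030), *Srebf1*, the regulator of fatty acid synthesis (-0.51 ± 0.08, p-adj = 0.0056), and *Scarb1*, an HDL receptor (-0.50 ± 0.08, p-adj = 0.0070). *Srebf1*, *Scd1*, *Fasn*, *Pltp* and *Arl4c* are all listed as LXR targets, so this list too held genes that rose and genes that fell. The call of *Pltp* was lost without the variance trend (p-adj = 0.0730), with the replicate block (0.0744), without RXR-deficient mAM replicate 3 (0.0672) and without control replicate 2 (0.0545).

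In ImmAMs against control mAMs 23 of the 60 rose and 21 fell, beside 22.8% of all genes tested called higher and 25.3% called lower. The counts were 8 and 7 of the 17 other LXR targets, 12 and 8 of the 29 cholesterol handling genes, and 3 and 7 of the 15 receptors and co-factors. *Abca9*, an ABCA transporter, rose by 5.17 ± 0.29 (log2, SE), from 1.35 to 47.1 CPM, *Msr1* by 3.68 ± 0.25, to 409 CPM, *Arl4c* by 2.52 ± 0.18, and *Cyp27a1*, which makes the LXR ligand 27-hydroxycholesterol, by 1.90 ± 0.19. *Pltp* fell by 3.81 ± 0.14, from 269 to 19.2 CPM, *Lpl*, lipoprotein lipase, fell by 2.78 ± 0.13, from 3930 to 564 CPM, and *Scarb1* fell by 1.72 ± 0.08. All of these had p-adj of 3.0e-06 or lower.

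Against RXR-deficient mAMs, 19 of the 60 rose and 17 fell in ImmAMs, beside 17.7% and 20.2% of all genes tested. *Abca9* (3.90), *Fads1* (2.08), a fatty acid desaturase, *Msr1* (2.02) and *Arl4c* (1.82) had the largest log2 rises, and *Pltp* (-3.12), *Lpl* (-2.45), *Nr1h3* (-2.27) and *Scarb1* (-1.22) the largest falls, among called genes of the target and handling lists whose higher group averaged 5 CPM or more.

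**Figure D4:**
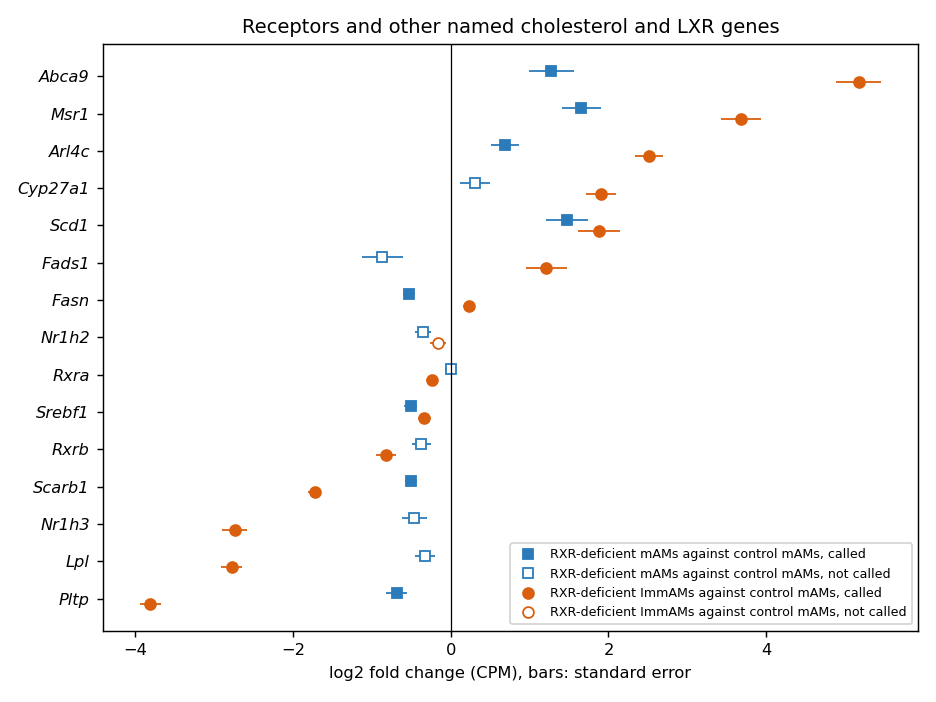
Log2 fold changes of CPM with standard errors for *Rxra*, *Rxrb*, the LXR genes and the pathway genes named in the text, for RXR-deficient mAMs (squares) and ImmAMs (circles) against the same control mAMs, filled where p-adj was under 0.05. *Abca9* (5.17) and *Pltp* (-3.81) mark the ends of the range in ImmAMs.

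The genes whose log2 CPM ran most like a member over the 11 libraries were sought among the 8742 others with a mean of at least 10 CPM. For *Abcg1* they were *Foxm1*, *Ccnb2* and *Flvcr2* (Pearson r of 0.997 for each), and for *Apoe* they were *Lyl1*, *Scpep1* and *Cd81* (0.989, 0.988 and 0.988). For *Abca1* they were *Srpk2*, *Ace* and *Zfp954* (0.866, 0.837 and 0.821). The libraries fall into 3 ImmAM and 8 mAM libraries, so for *Abcg1* and *Apoe* these values describe mainly that split. This does not hold for *Abca1*, whose level in ImmAMs lay inside the control range. Within the 8 mAM libraries r was 0.834 to 0.905 for the genes named with *Abca1*, 0.766 to 0.905 for those named with *Abcg1* and 0.329 to 0.539 for those named with *Apoe*.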

How the data were processed

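RNA from sorted mAMs and ImmAMs of 11 samples was sequenced as single-end reads of 60 bases. Per the study's methods, reads were trimmed by the authors (Cutadapt), those under 30 bases dropped and the rest aligned to GRCm38 transcripts (Ensembl release 99), with expected counts from RSEM (1.3.1 per the labels). The table deposited by the authors holds CPM on TMM-scaled library sizes, for genes reaching 1 CPM in 3 samples. Each value equals the read count plus 0.5, multiplied by a constant of its library. Whole reads came back from 100% of the values (tolerance 0.01) and served edgeR, DESeq2 and limma-voom only.

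Groups were taken from the sample labels. Log2 of the deposited CPM, without another pseudocount, was fitted with limma 3.58.1 (R 4.3.3; variance trend, 3 group means, 10 libraries without RXR-deficient mAM replicate 4). The 12889 genes that reached 1 CPM in 3 of the 10 libraries were tested, two-sided, with Benjamini-Hochberg adjusted p under 0.05 as the call. P-values measure differences against the spread between these libraries, which held RNA of both sexes, and not against the spread between single mice. Alternatives were edgeR 4.0.16, DESeq2 1.42.0, limma-voom, other pseudocounts, filters and scalings, and leaving out single libraries. The fit was tested on simulated data, with changes larger than those of *Abca1* and *Soat1* in RXR-deficient mAMs. That test therefore cannot tell how well changes as small as these are found. Gene positions and lengths come from GENCODE vM21 (12927 of 12932 gene IDs found), promoters from RefSeq (GRCm38.p6, 8 of 10 members found). The members, lists and rules were chosen with earlier results of these data known. Besides the members, the text names the RXR and LXR genes, defining markers, up to 4 rises and 4 falls per comparison by fold among called pathway genes at 5 CPM or more, and the 3 genes correlating best with *Abca1*, *Abcg1* and *Apoe*.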

Additional observations from a re-analysis of the deposited data

Results flagged for a closer look

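*Npc2* in RXR-deficient mAM replicate 4 stood at 526 CPM, apart from the 462 to 467 CPM of the other 3 RXR-deficient mAM libraries by more than Dixon's critical value for 4 samples. About 1 group in 20 passes this limit by chance, and 20 groups of 4 libraries were looked at. Replicate 4 of the RXR-deficient mAMs, which was left out of the main comparisons and entered only the fit with all 11 libraries, was above every control mAM library for *Abca1* (279 CPM), *Npc1* (505 CPM), *Npc2* (526 CPM) and *Lpcat3* (170 CPM).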

How the results depend on the processing

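The members called in both comparisons of ImmAMs kept their direction and call under every alternative that tests a difference from 0. With a fold of at least 1.5 required as well, 7 and 6 members were called. The calls in RXR-deficient mAMs against control mAMs were not stable: the 2 members became 1 with all 11 libraries, limma-voom or a fold of at least 1.5, and 0 with only the 2 groups compared, no variance trend, edgeR or the replicate block, and ranged from 0 to 3 over single libraries left out. At an unadjusted p under 0.05, 5 members passed with limma, edgeR and DESeq2 (23.1% to 23.7% of all genes), and 3 to 6 with single libraries left out. Over all genes this comparison had 624 calls, which became 337 with all 11 libraries, 199 with only the 2 groups, 122 without the variance trend, 174 with the block, 1368 with DESeq2 and 315 with the fold limit, and ranged from 162 (without RXR-deficient mAM replicate 3) to 861 (without control replicate 1). The other pathway genes called went from 10 to 4 without the trend, 5 with the block, 19 with DESeq2 and 6 with the fold limit, and ranged from 5 (without control replicate 2) to 13 (without RXR-deficient mAM replicate 2) over single libraries. The cause was not tested.

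With the fold limit, the ImmAMs had 3438 of 6194 calls against control mAMs, with 26 of 44 other pathway genes, and 2800 of 4891 against RXR-deficient mAMs. In RXR-deficient mAMs the sign of *Npc2*, near 0, turned to 0.0073 with all 11 libraries and 0.0050 with quantile normalization, and that of *Lipa* to -0.011 with the block. Over single libraries left out *Lipa* ranged from -0.051 to 0.086 and *Rxra* from -0.048 to 0.049. The correlations of same-numbered libraries' deviations were -0.129 to 0.059 over 8 pairs, against -0.154 to 0.208 for other pairs. Only ImmAMs and RXR-deficient mAMs share a genotype and could come from the same mice. Their same-numbered pairs had 0.059 (replicate 2) and -0.0333 (replicate 3), and RXR-deficient mAM replicate 4 was not in this check. With so few pairs it cannot tell whether ImmAMs and mAMs of the same number came from the same mice. *Apoe* was covered by 199 to 574 reads in mAMs, which limits the precision of its level there.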
